A study of Homo sapiens with 6 samples.

Results

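The 41 genes described here carry cells from G1 into S phase and copy the DNA. They were picked by symbol from a list drawn up by function, with earlier results of these data known, and all 41 were found among the 19755 genes of the protein-coding gene table. RNA-seq had been run on 6 libraries of cells labelled EA.hy926, an established line made by fusing a human umbilical vein endothelial cell with A549, a lung carcinoma line. Some titles name human umbilical vein endothelial cells as well, and the labels do not settle which of them was used. The genotype is wild type throughout. There were 3 control libraries, at 12 h, and 3 libraries from cells given lipopolysaccharide (LPS), a cell wall component of Gram-negative bacteria that activates Toll-like receptors, at a dose of 1000 ng/ml over 12 h. Only the titles separate the groups, since all 6 libraries carry an identical treatment label, and every difference below rests on those titles. The libraries are called control 1 to 3 and LPS 1 to 3. Separate cultures are not stated for the replicates, so p-values reflect only how far these libraries differ within a group, and that spread may be technical. The labels call the LPS treatment an induction of sepsis, and the carcinoma parent of the hybrid line limits it as a model of resting endothelium.

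In G1, cyclin D with CDK4 or CDK6, and then cyclin E with CDK2, phosphorylate the retinoblastoma protein and release E2F transcription factors, which switch on most of the genes listed here. Origins are licensed when ORC, CDC6 and CDT1 load the MCM helicase ring onto DNA, and the helicase starts only when CDC45 and the GINS complex join it. Polymerases, the PCNA sliding clamp with its RFC loader, and the enzymes that join Okazaki fragments then copy both strands. Genes of this kind are transcribed in dividing cells and fall silent in resting endothelium, so their RNA in a culture largely follows the share of cells in late G1 and S phase. In bulk RNA, fewer cells of a kind and less RNA per cell cannot be told apart.

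The promoters of these genes were searched for short motifs, which the choice of genes did not use. RefSeq promoter windows (GRCh38.p14, 250 bases before to 50 bases after a start) were found for 37 of the 41 genes, in 47 windows. Those without a window were CCNE2, GINS4, MCM4 and MCM5. A core E2F motif, searched on both strands as TTTGGCGC, TTTCCCGC, TTTCGCGC or TTTGCCGC, occurred in 20 of the 37 genes (54.1%). The same letters occurred in 6.79% of the tested protein-coding genes with a window and in 3.99% of all genes with one. By window the shares were 44.7% for the replication genes and 3.31% for all genes. The CCAAT box, the 5 letters read by the NF-Y factor and searched on both strands, occurred in 62.2% of the replication genes and in 43.2% of tested genes. It was more frequent, at 88%, in 25 genes of G2 and mitosis with a window, so it is not particular to the replication genes. In 60 other genes of the pathway with a window it occurred in 53.3%. The CHR element of mitotic genes, searched on both strands as TTTGAA or TTCGAA, showed the reverse of the E2F pattern. It occurred in 5.41% of the replication genes (MCM6 and RRM1), in 15.6% of tested genes and in 80% of the 25 genes of G2 and mitosis. The E2F letters occurred in 12% of those mitotic genes and in 35% of the 60 other pathway genes. TTTGGCGC and TTTCGCGC can overlap on opposite strands, as they do in MCM6. A match describes letters, not a site in use.

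Windows of 180 bases before to 20 bases after a start are given for 6 genes on which the results below turn. CDC6, ORC6 and MCM10 had the largest changes, E2F1 encodes the transcription factor itself, and MCM6 and PCNA are abundant genes with changes near 0. Capitals mark the E2F and CCAAT letters on either strand.
CDC6, chr17:40287699-40287898, plus strand: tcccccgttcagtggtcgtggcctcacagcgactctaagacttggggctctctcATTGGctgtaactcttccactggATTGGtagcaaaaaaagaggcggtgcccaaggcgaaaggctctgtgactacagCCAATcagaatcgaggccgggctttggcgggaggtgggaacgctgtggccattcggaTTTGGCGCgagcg
MCM6, chr2:135876424-135876623, minus strand: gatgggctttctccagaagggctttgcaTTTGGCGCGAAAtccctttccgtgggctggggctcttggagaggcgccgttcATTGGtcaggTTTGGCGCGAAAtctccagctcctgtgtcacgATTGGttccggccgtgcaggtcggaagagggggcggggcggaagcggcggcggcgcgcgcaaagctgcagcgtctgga
E2F1, chr20:33686366-33686565, minus strand: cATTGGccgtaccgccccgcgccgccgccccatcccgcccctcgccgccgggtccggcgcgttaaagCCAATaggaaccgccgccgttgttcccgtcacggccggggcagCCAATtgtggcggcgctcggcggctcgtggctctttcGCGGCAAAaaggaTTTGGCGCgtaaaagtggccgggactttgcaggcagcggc
PCNA, chr20:5126603-5126802, minus strand: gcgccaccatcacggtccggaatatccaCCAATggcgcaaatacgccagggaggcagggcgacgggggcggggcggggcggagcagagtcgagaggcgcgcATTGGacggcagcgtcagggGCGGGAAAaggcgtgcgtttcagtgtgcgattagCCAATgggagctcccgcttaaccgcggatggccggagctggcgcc
ORC6, chr16:46689479-46689678, plus strand: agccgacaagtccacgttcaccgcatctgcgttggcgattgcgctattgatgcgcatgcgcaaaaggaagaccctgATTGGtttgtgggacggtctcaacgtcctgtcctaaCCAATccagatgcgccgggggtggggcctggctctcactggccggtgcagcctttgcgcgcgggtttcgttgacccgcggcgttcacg
MCM10, chr10:13161378-13161577, plus strand: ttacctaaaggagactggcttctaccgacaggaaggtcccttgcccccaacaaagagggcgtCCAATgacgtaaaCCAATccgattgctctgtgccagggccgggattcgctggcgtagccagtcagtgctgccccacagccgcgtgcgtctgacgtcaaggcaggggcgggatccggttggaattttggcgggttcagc
CDC6 has its E2F letters from base 8 of the transcript and 3 CCAAT boxes before the start. MCM6 has 2 stretches in which TTTGGCGC overlaps TTTCGCGC of the other strand, the nearer one beginning at position -90 from the start. E2F1 has 2 E2F matches, beginning at positions -33 and -20. The PCNA window belongs to the start of the longer transcript, PCNA-202. ORC6 and MCM10 have 2 CCAAT boxes each, and none of the 4 E2F strings lies in these windows, which says only that these letters are not there.

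No gene of the 41 passed the test for a change with LPS. Values are FPKM (fragments scaled to transcript length and to the mapped fragments of the library), tested on log2(FPKM + 0.5) with limma where the mean was at least 0.5 FPKM. That filter kept 39 of the 41 and left out CCNE2 and PRIM1. None of the 39 had an adjusted p (Benjamini-Hochberg over all 12068 genes tested) under 0.05, and their adjusted p ran from 0.453 to 0.989. The background was low as well, since 7 genes in all, 0.058% of those tested, were called. At an unadjusted p under 0.05 there was 1 gene, CDC6, against 10.4% of all genes tested. The fitted log2 changes ran from -0.23 for POLA1 to 0.57 for CDC6. They were above 0 for 29 genes and below 0 for 10, with a median of 0.12, beside a median of -0.01 and 47.8% above 0 over all genes tested. That tilt was gone without control 2, where the median was -0.01 and 18 of 39 changes were above 0. Without LPS 2 the median was 0.21 and 31 of 39 changes were above 0. LPS 2 was the lowest LPS library in 23 of the 39 genes, against 42.1% of all genes tested. For 37 of the 39 genes the 95% interval of the change in FPKM + 0.5 lay within a 2-fold change either way. Adding 0.5 shrinks the changes of low genes, so for them these intervals do not bound the change in FPKM itself. For MCM10 the log2 change was 0.55, and 0.80 when 0.1 was added in place of 0.5.

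**Figure D1:**
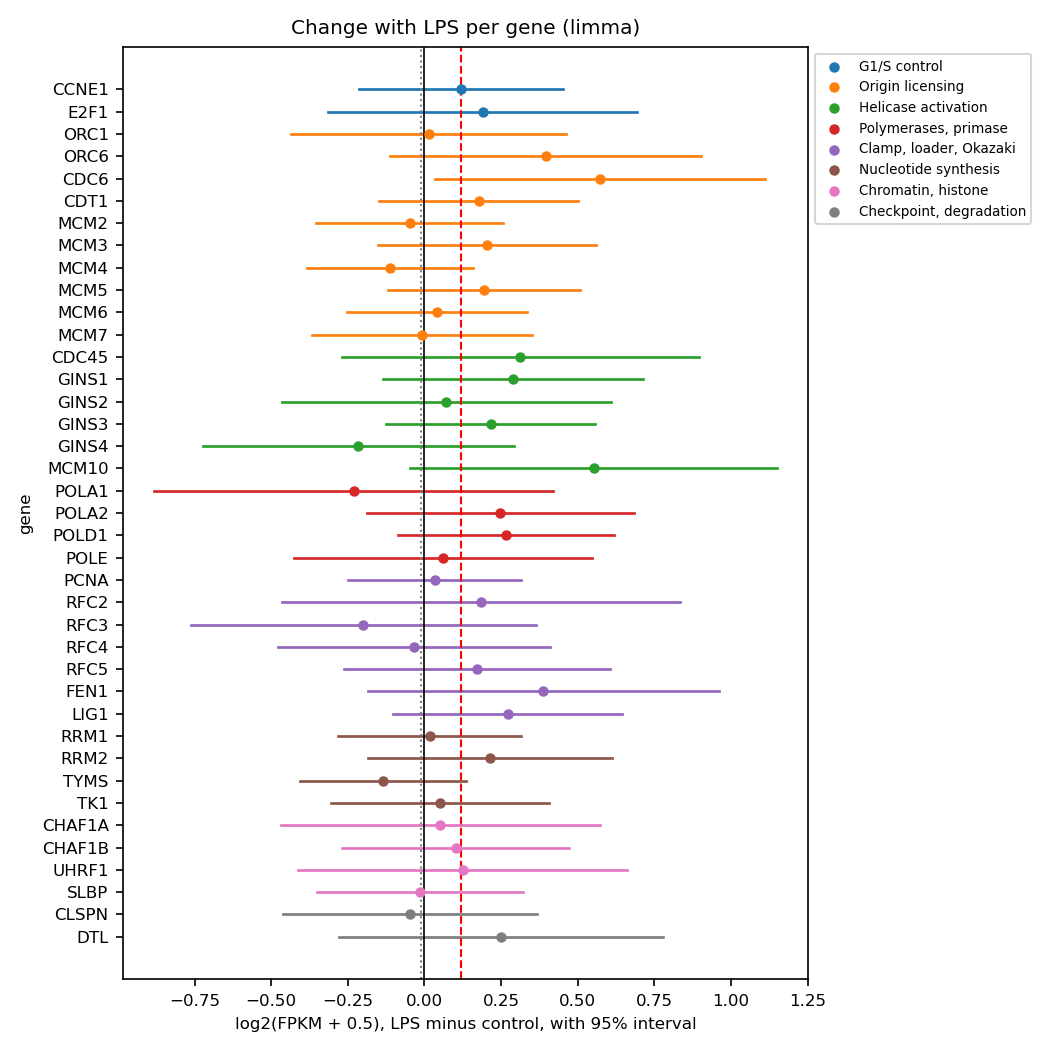
Change of each tested gene with LPS, as LPS minus control on the log2(FPKM + 0.5) scale, with its 95% interval from limma (n = 3 libraries per group), coloured by role. The red dashed line is the median of the 39 genes (0.12) and the grey dotted line that of all genes tested (-0.01). Only the interval of CDC6 lies wholly above 0.

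Licensing factors held the largest change. CDC6 (ENSG00000094804, GRCh38 chr17:40287879-40304657), the ATPase that brings the MCM ring to ORC, stood at 1.62, 0.794 and 1.45 FPKM in control 1 to 3 and at 2.67, 1.81 and 1.91 FPKM in LPS 1 to 3. Every LPS library lay above every control. The means were 1.29 ± 0.438 and 2.13 ± 0.467 FPKM (SD, n = 3 each), a log2 change of 0.57 with an SE of 0.23 and an adjusted p of 0.453 by limma. Leaving out control 2 brought the log2 change to 0.36. ORC6, the smallest subunit of the origin recognition complex, was the other gene whose groups did not overlap, at 1.91, 1.12 and 1.93 FPKM in the controls and 2.92, 2.07 and 1.96 FPKM with LPS. The gap between the highest control and LPS 3 was narrow, and the log2 change was 0.40 (SE 0.22, adjusted p = 0.570 by limma). It was 0.20 without control 2 and 0.25 without LPS 1, and the groups overlapped after median-of-ratios rescaling or quantile normalization. Over all genes tested, 8.68% had 3 LPS values above all 3 control values, so 2 of 39 is no more than the background. In the other direction there were 0 of 39, against 8.73%.

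The rest of the licensing machinery had smaller changes, from -0.11 to 0.20 on the log2 scale. CDT1, which loads the ring with CDC6, changed by 0.18 and ORC1, the ATPase subunit of ORC, by 0.01 on the log2 scale. The 6 subunits of the helicase ring, MCM2 to MCM7, each stand once in the ring, and their mean levels per length ran from 2.92 FPKM (MCM2) to 10.5 FPKM (MCM6). MCM6 was at 10.5, 8.95 and 11.7 FPKM in the controls and 10.9, 10.2 and 10.9 FPKM with LPS. The LPS values lie inside the control range, and the log2 change was 0.04. Among the other ring subunits the changes ran from -0.11 (MCM4) to 0.20 (MCM3), with MCM5 at 0.19 and MCM2, MCM4 and MCM7 below 0. The 95% interval for MCM3 ran from -0.15 to 0.56, so these values do not show that a level was unchanged.

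**Figure D2:**
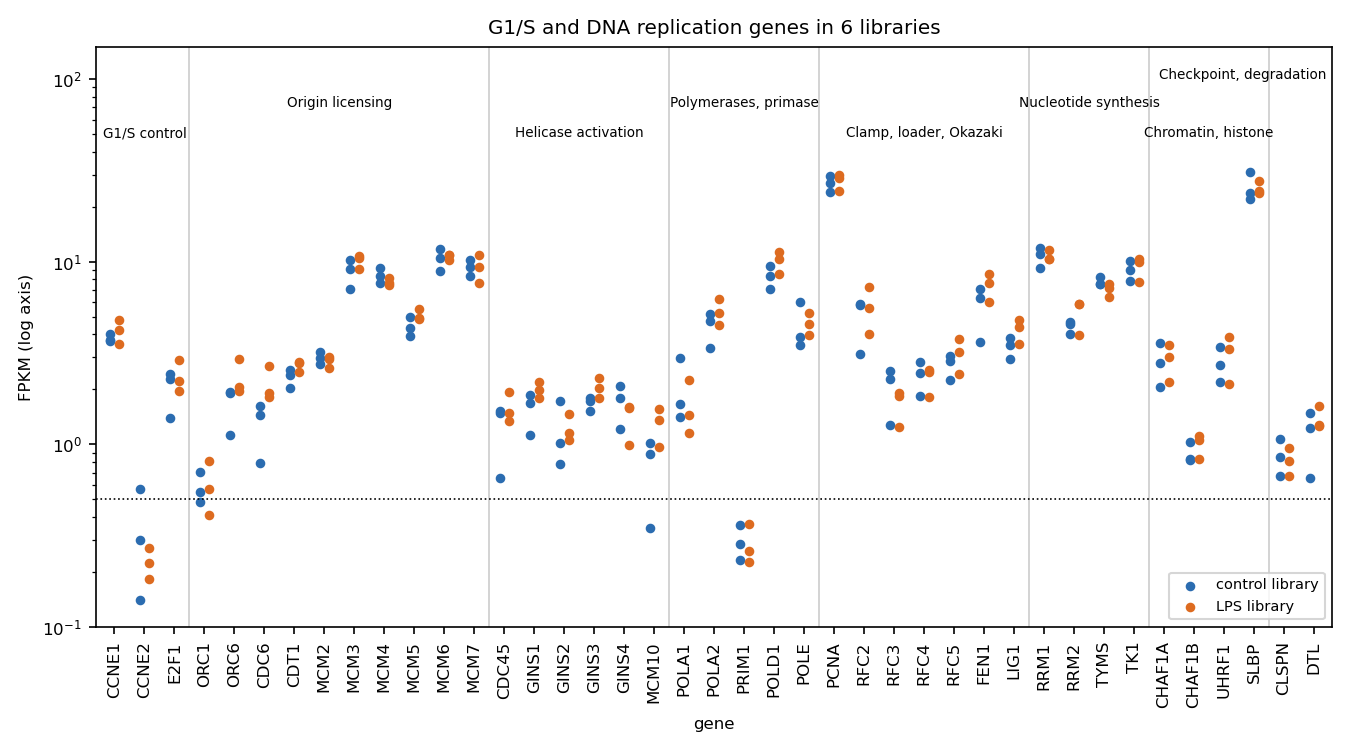
FPKM of the 41 genes in each of the 6 libraries on a log axis, grouped by role, with control libraries in blue and LPS libraries in orange. PCNA (mean 27.2 FPKM) and SLBP (25.4 FPKM) stand above the rest, and CCNE2 and PRIM1 lie under the dotted line at 0.5 FPKM that marks the test's minimum.

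Factors that activate the helicase varied most between libraries. MCM10, which helps to start the loaded helicase, stood at 1.01, 0.348 and 0.889 FPKM in the controls and 1.55, 0.965 and 1.36 FPKM with LPS. Control 2 was far the lowest, LPS 2 lay below control 1, and the log2 change was 0.55 (SE 0.26, adjusted p = 0.508 by limma), or 0.29 without control 2. CDC45 was at 1.49, 0.655 and 1.52 FPKM in the controls against 1.35, 1.49 and 1.93 FPKM with LPS. Here control 2 alone stands apart, LPS 1 and LPS 2 lie below control 3, and the log2 change of 0.31 was 0.05 without control 2. The 4 GINS subunits, which tie CDC45 to the ring, differed in sign. GINS1 was at 1.68, 1.13 and 1.87 FPKM in the controls and 1.99, 1.79 and 2.19 FPKM with LPS, a log2 change of 0.29, or 0.13 without control 2. GINS3, the most abundant of the role, was at 1.79, 1.53 and 1.73 FPKM and then 2.30, 2.03 and 1.78 FPKM, with a log2 change of 0.22. GINS2 changed by 0.07 and GINS4 by -0.22 on the same scale, and none of the 4 passed the test.

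Polymerase genes had changes on both sides of 0. POLD1, the catalytic subunit of the lagging-strand polymerase delta, was at 8.37, 7.11 and 9.46 FPKM in the controls and 8.60, 10.3 and 11.3 FPKM with LPS. LPS 1 lies among the controls, and the log2 change was 0.27 (adjusted p = 0.584 by limma). POLA2, the second subunit of polymerase alpha, changed by 0.25 and its catalytic partner POLA1 by -0.23. POLE, the leading-strand polymerase, changed by 0.06 on the log2 scale. PRIM1, the primase that lays down RNA primers, was listed at 0.227 to 0.368 FPKM.

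At the fork, the sliding clamp PCNA was the most abundant of the 41. PCNA stood at 27.1, 24.2 and 29.4 FPKM in the controls and 28.6, 24.2 and 29.9 FPKM with LPS, and the groups lie on top of each other (26.9 ± 2.61 and 27.6 ± 2.94 FPKM, SD, n = 3 each). Its log2 change was 0.03, with a 95% interval of -0.25 to 0.32. FEN1, the flap nuclease that trims Okazaki fragments, was at 6.32, 3.63 and 7.09 FPKM in the controls and 8.55, 5.99 and 7.66 FPKM with LPS. Control 2 was again the lowest, LPS 2 lay under both other controls, and the log2 change was 0.39 (adjusted p = 0.628 by limma), or 0.12 without control 2. LIG1, the ligase that seals those fragments, was at 2.92, 3.50 and 3.83 FPKM in the controls and 3.53, 4.36 and 4.81 FPKM with LPS. LIG1 was the 1 gene of the 39 that was lowest in control 1, and its log2 change was 0.27. The clamp loader subunits changed by 0.18 (RFC2), -0.20 (RFC3), -0.03 (RFC4) and 0.17 (RFC5).

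None of the nucleotide supply, chromatin and checkpoint genes passed the test. RRM1, the large subunit of ribonucleotide reductase, stood at 11.1, 9.20 and 11.9 FPKM in the controls and 11.7, 10.4 and 10.4 FPKM with LPS, a log2 change of 0.02. Its partner RRM2, which is made mainly in S phase, changed by 0.21, the thymidylate synthase TYMS by -0.14 and the thymidine kinase TK1 by 0.05. SLBP, which binds the stem-loop of histone messages, was at 31.0, 23.9 and 22.1 FPKM in the controls and 24.3, 27.7 and 23.7 FPKM with LPS. Control 1 was the highest there, and the log2 change was -0.02. CHAF1A and CHAF1B, which place histones on new DNA, changed by 0.05 and 0.10, and UHRF1, which guides maintenance methylation, by 0.12. DTL, which directs the destruction of CDT1 in S phase, was at 1.49, 0.649 and 1.22 FPKM in the controls and 1.62, 1.27 and 1.26 FPKM with LPS, with only control 2 apart. Its log2 change was 0.25, and 0.02 without control 2. The checkpoint adaptor CLSPN changed by -0.05.

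The G1/S switch genes gave no clearer signal. CCNE1, cyclin E1, was at 4.01, 3.72 and 3.68 FPKM in the controls and 4.82, 4.23 and 3.55 FPKM with LPS. LPS 3 was the lowest of the 6 and LPS 1 the highest, and the log2 change was 0.12. E2F1 ran from 1.39 FPKM in control 2 to 2.90 FPKM in LPS 1, with a log2 change of 0.19. CCNE2, cyclin E2, was listed at 0.140 to 0.570 FPKM and was not tested.

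Control 2 was the library with the lowest values for most of these genes. Of the 39 tested genes, 23 (59.0%) had their lowest value of all 6 libraries in control 2, against 20.1% of all genes tested, and 0 had their highest there. LPS 2 was lowest in 8 (20.5%, against 21.9% of all genes) and highest in 0. Over all genes, 11.9% were highest in control 2 and 10.9% in LPS 2. The highest values fell in LPS 1 (13 genes, 33.3%), LPS 3 (12, 30.8%), control 3 (10, 25.6%) and control 1 (4, 10.3%). Over all genes tested these shares were 14.1%, 25.7%, 24.6% and 12.8%, so LPS 1 stood furthest from the background. Relative to the mean of the controls, the median of the 39 genes was 0.07, -0.22 and 0.16 in control 1 to 3 and 0.14, 0.02 and 0.21 in LPS 1 to 3 on the log2 scale. The median over all genes was -0.03 in control 2 and -0.05 in LPS 2. Control 2 was thus the lowest and LPS 3 the highest, with control 3 above LPS 1. In 25 of the 39 genes control 2 lay below all 3 LPS libraries, compared with 30.0% of all genes tested. Summed over the 39 genes, FPKM came to 209, 169 and 213 in the controls and 218, 192 and 219 with LPS.

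**Figure D3:**
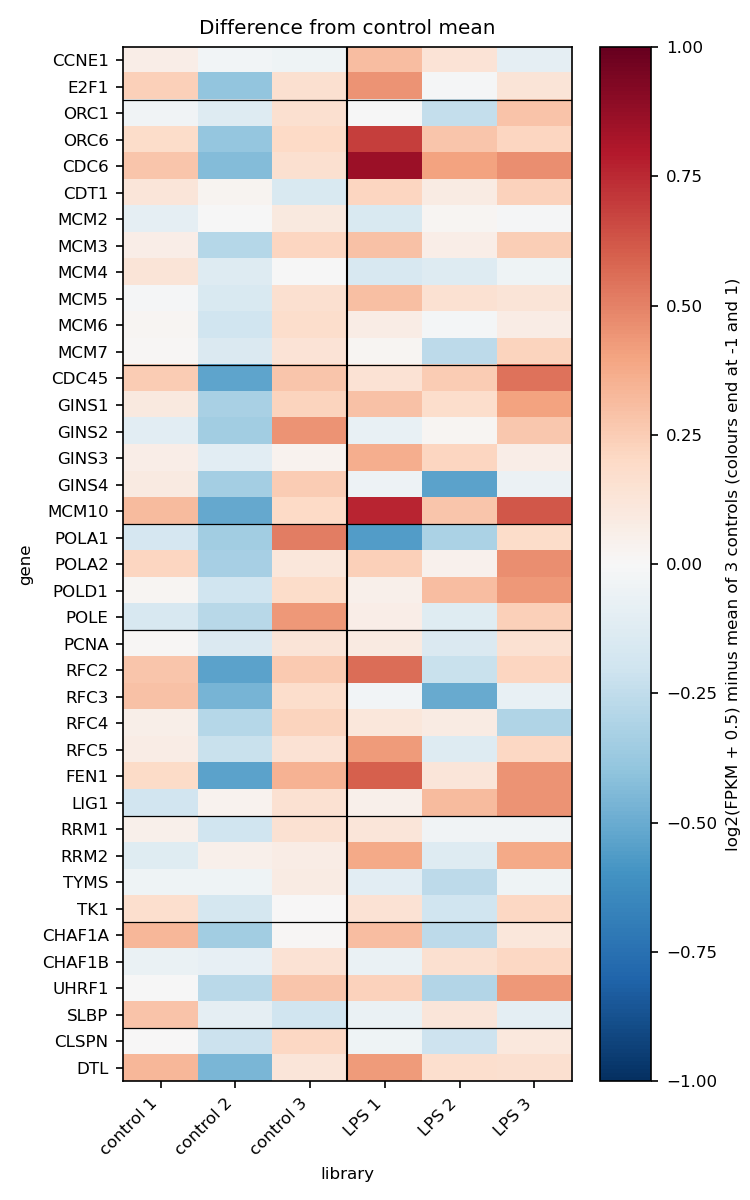
Log2(FPKM + 0.5) of the 39 tested genes in each library minus the mean of the 3 controls, with red above and blue below it and horizontal lines between roles. The control 2 column is blue for most genes, and LPS 2 is paler than LPS 1 and LPS 3.

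Genes of G2 and mitosis had a similar order of libraries with a wider spread. The 29 tested had medians of 0.07, -0.27 and 0.19 in the controls and 0.21, -0.09 and 0.55 in the LPS libraries. Control 2 was lowest in 19 of 29, against 20.1% of all genes tested. LPS 3 was highest in 24 of 29 (82.8%) and in 12 of the 39 replication genes (30.8%), against 25.7% of all genes tested. None of the 29 passed the threshold either, although AURKB, BUB1B and UBE2C had LPS values above all controls, a count to set against the 8.68% of all genes. The difference between the 2 lists was not tested.

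**Figure D4:**
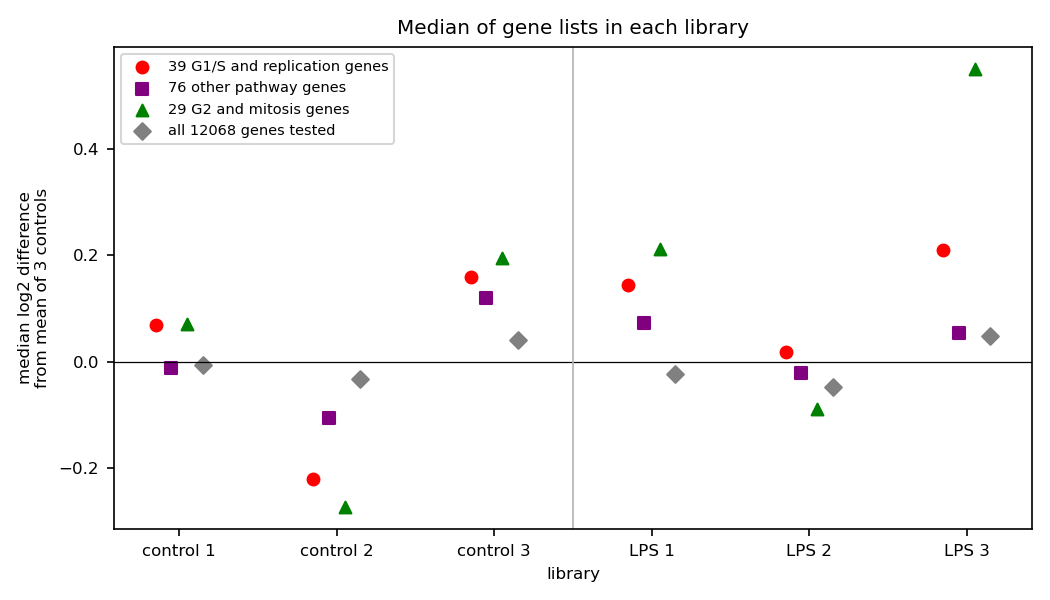
Median log2 difference from the mean of the 3 controls in each library, for the 39 replication genes, 76 other genes of the pathway, 29 genes of G2 and mitosis and all 12068 genes tested. The replication genes are lowest in control 2 (-0.22) and the mitotic genes reach 0.55 in LPS 3, while all genes stay within 0.05 of 0.

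Other genes of the pathway, 78 in a list set by role, were read from the same fit. Of these 76 were tested and 0 passed the threshold in either direction, with a median log2 change of 0.02, 45 above 0 and 31 below. CDC25A, the phosphatase that activates CDK2, was at 1.27, 0.908 and 1.58 FPKM in the controls and 3.09, 1.88 and 2.50 FPKM with LPS. The groups did not overlap, and the log2 change was 0.77 (SE 0.21, adjusted p = 0.318 by limma). E2F4 and CCND3 were the other 2 of the 76 whose LPS values all lay above the controls, against 8.68% of all genes, and 0 lay wholly below. E2F4, an E2F that mostly represses, was at 22.7, 21.3 and 22.9 FPKM in the controls and 36.1, 23.6 and 27.9 FPKM with LPS. CCND3, cyclin D3, was at 19.9, 19.4 and 20.2 FPKM and then 21.9, 22.4 and 21.3 FPKM.

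Upstream regulators included the most abundant genes of the pathway. CCND1, cyclin D1, was at 277, 239 and 259 FPKM in the controls and 288, 273 and 232 FPKM with LPS. CDK4, its kinase, was at 35.1, 34.0 and 36.8 FPKM in the controls and 34.1, 34.4 and 41.5 FPKM with LPS, high in LPS 3. MYC, a growth-driving transcription factor, was at 5.42, 5.48 and 13.6 FPKM in the controls and 13.2, 6.99 and 18.0 FPKM with LPS, and overlapped through control 3 and LPS 2. CDKN1A, the p21 inhibitor that blocks cyclin E with CDK2 and binds PCNA, was at 104, 352 and 109 FPKM in the controls and 202, 230 and 192 FPKM with LPS. Its highest value was therefore in control 2, the library in which the replication genes were lowest. In that library 181 FPKM was listed for a single transcript, CDKN1A-208, which stood at 0.0214 FPKM in LPS 2 and at 0 in the other 4 libraries. Without that transcript, a split made after its values were seen, CDKN1A was at 104, 171 and 109 FPKM in the controls and at 202, 230 and 192 FPKM with LPS. The split lowers control 2 almost alone, and may remove real CDKN1A signal from it. The order of the groups after the split is therefore no sign of a change with LPS. The part of CDKN1A in the level of the replication genes was not tested. CDKN2A, the p16 and ARF locus, was at 37.1, 38.0 and 37.1 FPKM in the controls and 40.7, 42.2 and 31.5 FPKM with LPS, which lay on both sides of them. CDKN1C, the p57 inhibitor, was low, at 0.603, 1.42 and 0.988 FPKM and then 0.651, 0.802 and 0.487 FPKM. Among other replication factors, the polymerase delta subunit POLD2 was at 23.8, 21.2 and 25.7 FPKM in the controls and 26.2, 23.1 and 26.9 FPKM with LPS. Its partner POLD4 was at 22.8, 21.9 and 19.2 FPKM and then 21.6, 20.7 and 25.9 FPKM. The groups overlapped in each of these 4 genes. The PCNA-binding PCLAF was at 1.18, 2.55 and 2.33 FPKM in the controls and 0.767, 1.58 and 1.88 FPKM with LPS, a log2 change of -0.40 that did not pass the test.

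Of 167 transcripts of the 41 genes in the protein-coding transcript table, 54 were tested, and 0 were called by limma (lowest adjusted p = 0.741), with 1 at an unadjusted p under 0.05. Over all 20563 transcripts tested, 26 (0.126%) were called and 6.44% had an unadjusted p under 0.05. Groups did not overlap for 5 of the 54 (GINS1-201, GINS3-202, ORC6-204 and TK1-203 higher, MCM2-201 lower), against 13.8% of all transcripts tested. The widest change was in MCM3. MCM3-206 stood at 7.14, 5.36 and 7.40 FPKM in the controls and at 0.116, 6.92 and 0.141 FPKM with LPS, while MCM3-205 stood at 1.64, 1.45 and 2.21 FPKM and then at 9.96, 1.92 and 9.38 FPKM. The listed values had changed places in LPS 1 and LPS 3, and LPS 2 was like the controls. MCM3-205 took 18.7% to 22.9% of the pair in the controls, 98.9% in LPS 1, 21.7% in LPS 2 and 98.5% in LPS 3. The pair's sum, lowest in control 2, was 8.78, 6.81 and 9.61 FPKM in the controls and 10.1, 8.84 and 9.52 FPKM with LPS. By limma the log2 change was -2.31 (SE 1.02) for MCM3-206 and 1.49 (SE 0.61) for MCM3-205, with an adjusted p of 0.741 for each. Without LPS 2, MCM3-206 alone was called (log2 change -3.49, adjusted p = 0.0370 by limma). Leaving out the LPS library that was like the controls makes the remaining LPS values alike, so this call adds nothing to the values above. In GENCODE 29 both have 17 exons, 15 of them identical, and the same coding sequence. MCM3-206 starts 44 bases further upstream and MCM3-205 ends 5 bases further downstream, so the transcripts differ in few bases. Whether the change lies in the cells or in how shared fragments were assigned was not tested.

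**Figure D5:**
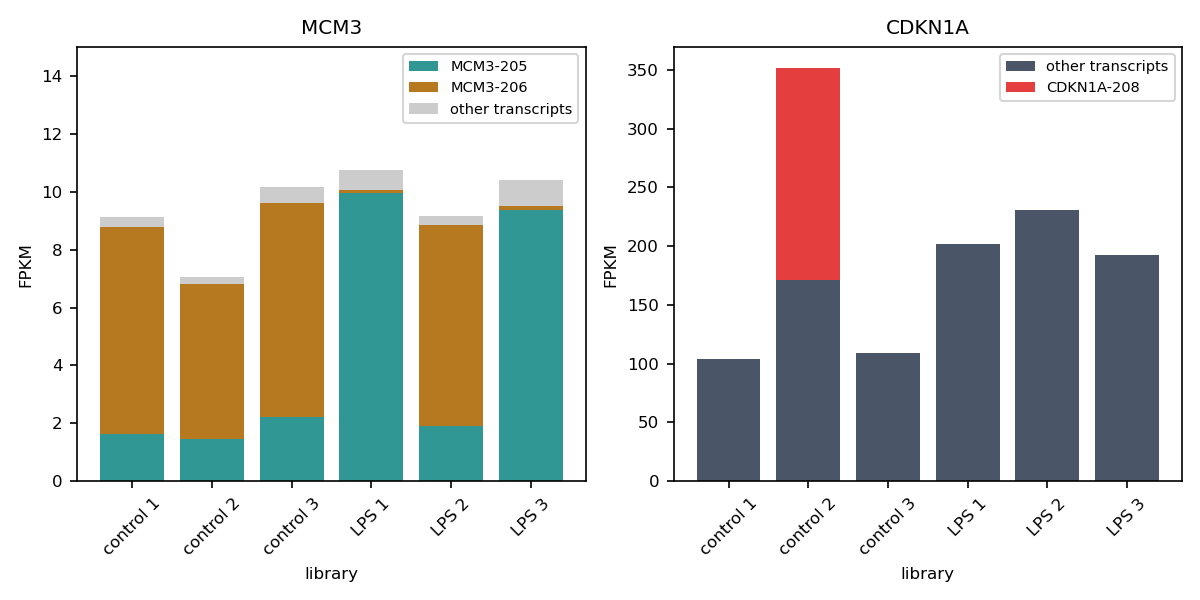
FPKM of MCM3 (left) and CDKN1A (right) in each library, stacked by transcript. In MCM3 the bar changes from MCM3-206 to MCM3-205 in LPS 1 and LPS 3, while the whole bar stays between 7.07 and 10.8 FPKM, and in CDKN1A the 181 FPKM of CDKN1A-208 appears in control 2.

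Similar swings were seen in other genes. RRM2-201 was at 0.0942, 0.160 and 0.374 FPKM in the controls and 0.265, 1.31 and 4.47 FPKM with LPS, high in LPS 3. SLBP-204 was at 9.49 FPKM in control 1 and at most 0.210 FPKM in the other 5 libraries. MCM4-220 was at 0.272, 0.0258 and 4.05 FPKM in the controls and 3.57, 0.141 and 4.60 FPKM with LPS. In each of the 3 the groups overlapped. For CDC6 the leading transcript, CDC6-201, took 83.8% of the gene and stood at 1.61, 0.780 and 1.25 FPKM in the controls and 1.48, 1.56 and 1.90 FPKM with LPS, so its groups overlapped although those of the gene did not. The transcript with p under 0.05 was GINS1-201, at 0.541, 1.12 and 1.22 FPKM in the controls and 1.87, 1.69 and 2.17 FPKM with LPS (log2 change 0.75, adjusted p = 0.741 by limma). PCNA-201, which starts inside the longer PCNA-202, held 82.2% of the PCNA level over the 6 libraries, but the split varied. PCNA-201 stood at 16.9, 15.5 and 27.8 FPKM in the controls and 26.9, 22.1 and 25.1 FPKM with LPS. PCNA-202 stood at 10.2, 8.71 and 1.58 FPKM and then at 1.66, 2.17 and 4.75 FPKM. MCM6-201, RRM1-201 and FEN1-201 held 99.4%, 90.3% and 95.2% of the levels of their genes and moved as the genes did.

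Some gene values rest on models that reach past the annotated gene, all looked at after values were seen. For PRIM1 the annotated protein-coding transcripts were listed at 0 in every library. An assembled model (chr12:56712428-56752373, minus strand) held 91.4% of the PRIM1 value and runs 19168 bases past the gene's end in GENCODE 29, over NACA. For CCNE2, 75.2% was in assembled models, and the protein-coding transcripts were listed at 0. The low FPKM of these 2 genes is therefore no measure of their coding RNA. In E2F1, 33.5% was in a short assembled model at the last exon, and E2F1-201, the annotated coding transcript, was at 1.83, 0.322 and 0.638 FPKM in the controls and 2.10, 1.76 and 2.12 FPKM with LPS. The MCM4 locus in the table reaches 187016 bases past the annotated gene, over PRKDC, and 17.0% of its value was in assembled models. The RRM2 locus reaches 80306 bases past its gene, over C2orf48, and the DTL locus 15417 bases, over INTS7. Neither value rests mainly on that reach. Any RRM2 transcript ending past the gene stood at no more than 0.289 FPKM in a library (RRM2-216, control 1). In DTL, 1.84% was in assembled models and 89.4% in protein-coding transcripts. In GINS1, 16.5% was in assembled models. Across the 41 genes, 26 had at least 80% of their FPKM in protein-coding transcripts. In GENCODE 29, 24 overlap another gene, 19 of them one on the opposite strand, and the counting strand is not given in the sources used here. MCM7 carries MIR25, MIR93 and MIR106B within it.

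The libraries were alike in general measures, with 11078 to 11179 protein-coding genes at 1 FPKM or more and summed protein-coding FPKM of 256047 to 264878. Read depth is unknown, since the tables hold FPKM and no counts. All 10 endothelial markers, among them PECAM1, CDH5 and VWF, were at 0.5 FPKM or more, with sums of 310 to 417 FPKM in the controls and 391 to 468 FPKM with LPS. Of 10 epithelial and A549 markers 5 were at that level, with SFTPC and NKX2-1 at 0, and their sums of 132 to 141 FPKM in the controls lay above the 94.2 to 118 FPKM with LPS. Fibroblast and smooth muscle markers were at 0.5 FPKM or more in 9 of 10 (3951 to 4293 and 3781 to 4316 FPKM), and leukocyte markers in 1 of 10, with PTPRC at 0. The part of the epithelial difference in the values of the replication genes was not tested.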

How the data were processed

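RNA-seq was deposited as FPKM tables, one value per gene or transcript and library, calculated by the authors from total RNA. The submitters' processing notes list HISAT2 and StringTie, with no version, and the mouse build mm9, yet the rows are human Ensembl genes placed on GRCh38, the build used here. The genes and lists were chosen with earlier results of these data known. Genes with a mean of at least 0.5 FPKM were fitted by group with limma (3.58.1, under R 4.3.3; eBayes with trend) after taking log2(FPKM + 0.5), two-sided, with Benjamini-Hochberg adjustment within each table. Changes on this scale understate those of low genes. Values in every library are given for the 8 largest changes, the most abundant tested gene of each role, genes whose groups do not overlap, and, per pathway list, the 2 largest changes and 2 most abundant genes. A gene that this rule names is not reported here. Transcripts named are the 5 that changed most among those averaging 1 FPKM or more, and some leading ones. Gene models came from GENCODE 29 and promoters from RefSeq. The orientation of promoter windows was checked against transcripts (44 of 47 matched, 0 reversed). The procedure was also run on simulated data, with independent noise for each gene and no shift shared within a library. Genes that move together by library, as the replication genes did, were not simulated. Alternatives were pseudocounts of 0.1 and 1, other filters, rescaling, quantile normalization, library weights, a replicate block, each library left out, and the table of all annotated genes.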

Additional observations from a re-analysis of the deposited data

How the results depend on the processing

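No alternative called any of the 41 genes, or any of the pathway genes, for which the table of all annotated genes was not run. The count of all genes called, 7, was 0 with no filter (1563 at an unadjusted p under 0.05), 0 with a replicate block (1451 at an unadjusted p under 0.05) and 0 to 8 when each library was left out in turn. Replication genes whose groups did not overlap numbered 2, but 4 after median-of-ratios rescaling and 4 after quantile normalization, both times CDC6, CDT1 and GINS1 higher and TYMS lower (18.2% and 18.4% of all genes), and 5 to 10 with a library left out, where the share over all genes was 25.2% to 30.0%. Their median log2 change ran from -0.01 without control 2 to 0.23 without control 3. Transcripts of these genes called numbered 0 to 1 with a library left out. With a library left out, log2 changes spanned 0 for SLBP (-0.11 to 0.13), PCNA (-0.040 to 0.12), RRM1 (-0.085 to 0.092) and MCM6 (-0.058 to 0.13). The cause of these shifts beyond the fewer libraries or genes was not tested. The other 11 of the 15 replication genes with a value given for every library in the text by rule kept their sign in every alternative. Same-numbered libraries did not deviate together over all genes (r = 0.017, 0.11 and 0.060, across genes), so the numbers, which only the titles give, were not taken as pairs. Across the 39 replication genes alone r was 0.58, 0.41 and 0.42 for same-numbered libraries and -0.39 to -0.0088 for the others. The 39 genes are not independent samples, and centring 3 libraries in each group ties these r values to each other. Whether same-numbered libraries are pairs therefore cannot be told from them. Control 2 was the lowest control in 33 of the 39, against 41.1% of all genes tested. LPS 2 was the lowest LPS library in 23, against 42.1%. Library 2 was lowest in both groups in 21, against 19.99%, which adds little to those 2 counts. The main test takes no account of the library numbers, whereas the replicate block does. With the replicate block 0 replication genes were called (lowest adjusted p = 0.367 by limma, 3 at an unadjusted p under 0.05), 2 did not overlap and the median stayed at 0.12. Precision was limited by 3 libraries a group and by an unknown depth.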
